A study of Mus musculus with 18 samples.

Results

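RNA-seq of mouse liver was read for 9 genes that are commonly used as references in RT-PCR, which are Actb, Actg1, Gapdh, Hprt, Tbp, Ppia, Ywhaz, Tubb5 and Pgk1. The genes were chosen by symbol for this role and not by any measured value, and they are 9 of the 54532 genes listed. The list they came from held 10 entries, of which Gusb-free is no gene symbol, and no gene was taken for it. Actb, which encodes β-actin, is the gene to which the RT-PCR of the study was normalised, and the comparisons below ask how stable it and the other references were between groups. Male C57BL/6J mice, 6 weeks old at the start of the study, were acclimatised before they were divided into groups. Normal control (NC) mice were given normal chow, and HFD control mice (HFD) were given a high-fat diet for 14 weeks and then saline with the diet continued. SZ-A mice were given the same high-fat diet and then SZ-A, the alkaloids of Ramulus Mori (Sangzhi), also with the diet continued. The time of treatment was stated as 8 weeks in the deposited design and as 6 weeks in the methods. All mice were fasted before the liver was taken, each group held 6 mice, and the SZ-A dose of the sequenced mice was not named. Levels are in FPKM, the fragments of a gene divided by its listed length and by the size of the library. The listed length can exceed that of the transcript, with 4133 against 1420 bases for Gapdh and 1289 against 1289 for Hprt. Levels of different genes therefore compare only roughly.

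A reference gene in RT-PCR is a gene whose mRNA is taken to be equal in all samples, so that the level of a target can be expressed relative to it. Any change of the reference is carried with the opposite sign into each target. Candidates are drawn from functions that every cell needs, among them the cytoskeleton, glycolysis, nucleotide salvage, protein folding and transcription. In liver, hepatocytes supply most of the RNA, beside macrophages, stellate cells and endothelial cells.

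The sequences of the β-actin primers of the study are shown first, since they decide which actin transcript RT-PCR reads. β-Actin and γ-actin, encoded by Actb and Actg1, are the 2 cytoplasmic actins, and they differ at few residues. Both primers are printed 5′ to 3′, with capitals at bases that differ from the aligned Actg1 transcript.
β-actin forward primer: gtgaCgtTgaCatccgTaaaga
β-actin reverse primer: gccGgactcatcGtactcc
The forward primer of 22 bases lies on the minus strand in exon 5 of Actb, at chr5:142904176-142904197 of GRCm38, with 4 differences from Actg1. The reverse primer of 19 bases lies in exon 6, at chr5:142903828-142903846, with 2 differences. The product measures 245 bases of the spliced transcript, and no transcript of another gene held an exact match to either primer in GENCODE M21.

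The first 60 coding bases of both actins are shown because they encode the acidic N terminus by which the proteins differ. Capitals mark the 9 bases that differ, and the positions are chr5:142905627-142905686 for Actb and chr11:120348032-120348091 for Actg1, both on the minus strand in exon 2.
Actb coding start: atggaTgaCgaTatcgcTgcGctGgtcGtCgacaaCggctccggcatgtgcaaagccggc
Actg1 coding start: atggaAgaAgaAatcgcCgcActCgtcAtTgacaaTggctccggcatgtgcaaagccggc
Each coding sequence measured 1128 bases, of which 1000 were the same in both genes, or 88.7%. The longest identical run was 62 bases, shorter than the sequenced reads.

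The fragments assigned to genes numbered 17163191 to 20493907 per mouse. For the chow mouse NC6 title and diet label disagree, since the label names a high-fat diet. It was kept in NC by its title. Without it the calls of Ppia in HFD against NC and of Hprt in SZ-A against NC changed, and those of the other reference genes tested did not. The mouse NC5 stood apart from its group, with 738 genes more than 2-fold from the NC median, against 139 to 450 such genes in the other 17 mice. Markers of hepatocytes were present in every mouse, at a summed level of 30156 to 63055 FPKM for 10 markers. A gene was tested if its mean over the 18 mice was at least 1 FPKM, which 10216 genes reached. A gene was called where the Benjamini-Hochberg adjusted p over these genes was under 0.05 by limma, with a fold change over 1.2.

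Of the 9 reference genes, 8 passed the filter on low values. Tbp did not, at a mean of 0.651 FPKM. Gapdh passed only through 2 mice, since its mean was 0.788 FPKM over the other 16. In HFD against NC, 2 of the 8 were called, Actb higher and Ppia lower, where 20.2% of all genes tested were called. By direction, 10.7% of all genes tested were called higher and 9.49% lower. None of the 8 was called in SZ-A against HFD, by limma or by voom on the fragments, where 0.147% of all genes tested were called by limma (0.0783% higher and 0.0685% lower). The same 2 tools called none in SZ-A against NC, where 9.6% of all genes tested were called by limma (5.31% higher and 4.3% lower). At an unadjusted p under 0.05 no reference gene differed in SZ-A against HFD, beside 14.8% of all genes tested. Actb, Hprt, Ywhaz and Pgk1, or 4 of the 8, did in SZ-A against NC, beside 25.5%. For SZ-A against HFD the study, using DESeq2 at the same thresholds, reported many more genes than limma called here. The lack of a call in that comparison therefore does not show that a reference gene was stable.

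**Figure D1:**
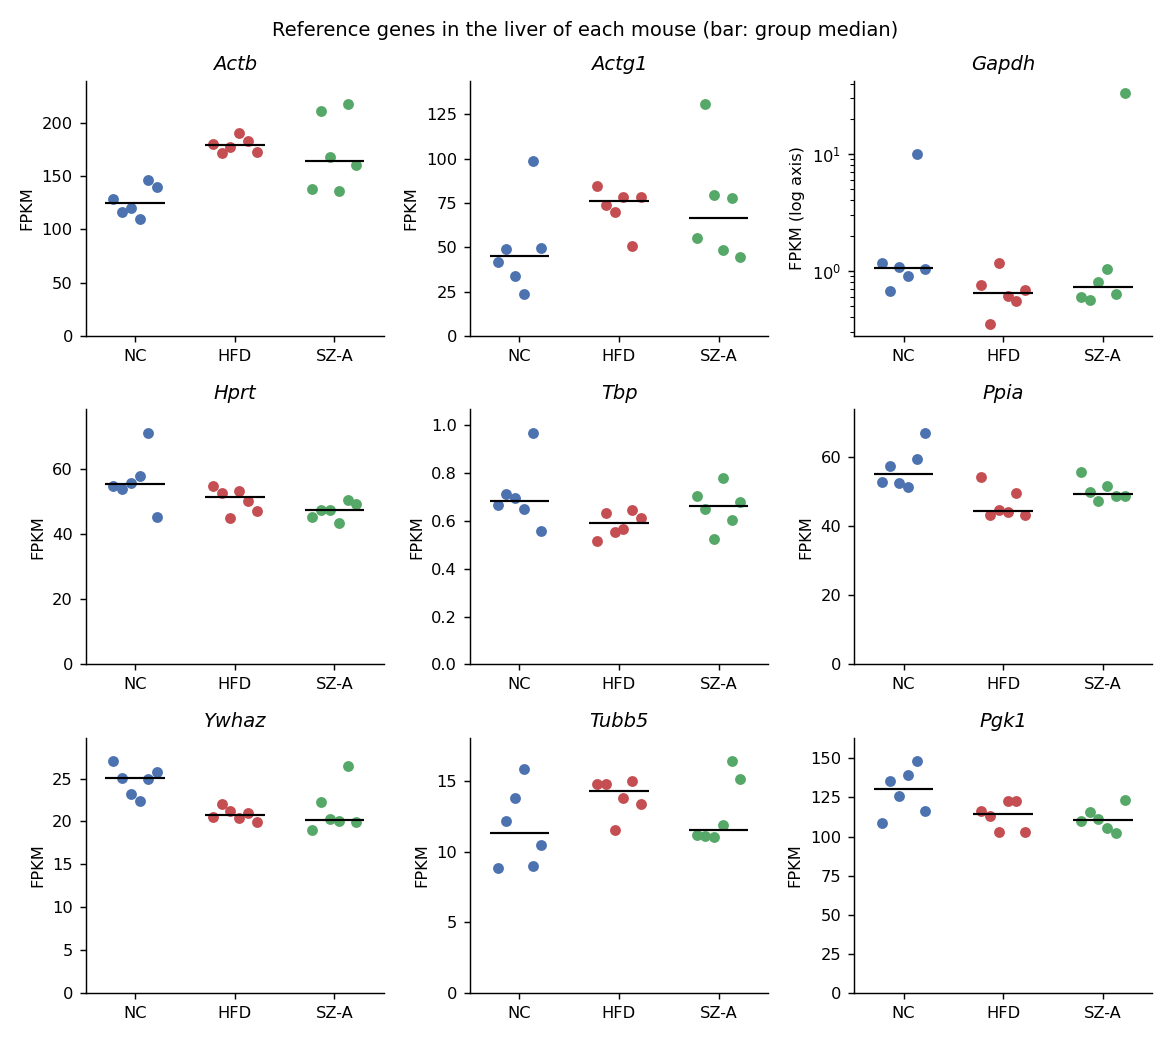
FPKM of each reference gene (vertical axes, starting at 0 except for Gapdh, which has a log axis) in the liver of each NC, HFD and SZ-A mouse, with 6 points and a bar for the median in each group. Actb of all 6 HFD mice lies above all 6 NC mice, and Gapdh of NC5 and SZ-A6 lies at 10.01 and 33.4 FPKM, above the other 16 mice.

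Actb (ENSMUSG00000029580, chr5:142903115-142906754, minus strand) encodes β-actin, the subunit of the actin filaments beneath the cell membrane. In NC its lowest, median and highest levels were 110.2, 125 and 146 FPKM. In HFD they were 172, 179 and 190.2 FPKM. In SZ-A they were 136, 164 and 218 FPKM. All 6 HFD mice were above the highest NC mouse, and the SZ-A mice were spread around the narrow HFD range, with 4 below it, 2 above it and none inside it. Actb rose in HFD against NC by 0.50 ± 0.080 (SE) on the log2 scale, a fold of 1.42 (95% interval 0.33 to 0.68 in log2, adjusted p = 0.000972). HFD and NC did not overlap, as for 10.5% of all genes tested. The call was kept when each of the 12 mice was left out in turn, with changes of 0.47 to 0.55, and without NC6 the change was 0.53 (adjusted p = 0.00125).

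In SZ-A against HFD, Actb differed by −0.08 ± 0.12 in log2, with a 95% interval of −0.33 to 0.17 (adjusted p = 0.787). In SZ-A against NC it differed by 0.42 ± 0.13, with an interval of 0.14 to 0.70 (adjusted p = 0.056), and 4 of 6 SZ-A mice were above the NC range. This difference was called without NC5, at 0.46 (adjusted p = 0.041), and without SZ-A1 or SZ-A4, but in no other fit that left out a mouse. HFD serves in the first of these comparisons and NC in the second, so the values share samples with HFD against NC.

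The deposited FPKM were scaled by a library size that was 0.933 to 1.14 times the fragments on genes, with medians of 0.979 for the NC mice, 1.11 for HFD and 1.01 for SZ-A. With plain totals of fragments as library size, the median change of all genes tested in HFD against NC moved from −0.03 to 0.12, and with a common FPKM sum per mouse to 0.15. Either scaling shifted all genes together, so that small negative changes, such as those of Hprt and Pgk1, could turn positive. Actb then differed by 0.66 and 0.70 and stayed called. Relative to the median gene, the change of Actb was 0.54 under all 3 scalings. Since each scaling shifts all genes of a mouse together, this value could hardly differ between them. Across these scalings the split of called genes moved from 1092 higher and 970 lower to 1969 and 406 with plain totals (23.2% of genes called), and to 2100 and 334 with a common sum (23.8%).

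Actg1 (ENSMUSG00000062825, chr11:120345690-120348542, minus strand) encodes γ-actin, the other cytoplasmic actin. The lowest, median and highest NC levels were 23.8, 45.3 and 98.6 FPKM. In HFD they were 50.8, 76.1 and 84.7 FPKM. In SZ-A they were 44.5, 66.5 and 131 FPKM. The highest NC mouse, NC5, was above every HFD mouse, and the groups overlapped. Actg1 differed in HFD against NC by 0.68 ± 0.26 in log2 (adjusted p = 0.084), which was not called. Without NC5 the difference was 0.91 ± 0.19 (adjusted p = 0.00578) and was called, and with plain totals or a common sum it was called at 0.84 and 0.87. For SZ-A against HFD it was −0.08, with an interval of −0.59 to 0.42. The share of the Actg1 transcript in windows of 100 bases that also occur in other genes was 51.1%, against 1.1% for Actb, and the 5 pseudogenes among those other genes that the data list held 15 to 72 fragments per mouse, against 1279 to 6893 on Actg1.

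Tubb5 (ENSMUSG00000001525, chr17:35833921-35838306, minus strand) encodes a β-tubulin of microtubules. Levels (lowest, median and highest) were 8.84, 11.3 and 15.9 FPKM in NC, 11.6, 14.3 and 15.0 in HFD, and 11.03, 11.6 and 16.4 in SZ-A. The NC mice spanned almost the whole range of both other groups. Tubb5 differed in HFD against NC by 0.27 ± 0.14 in log2 (adjusted p = 0.18), with an interval of −0.03 to 0.57. With a common sum per mouse it was called, at 0.47.

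Pgk1 (ENSMUSG00000062070, chrX:106187100-106203699, plus strand) encodes phosphoglycerate kinase, a glycolytic enzyme that makes ATP. Its lowest, median and highest levels were 108, 131 and 148 FPKM in NC, 103, 114 and 123 in HFD, and 102, 110.3 and 123 in SZ-A. The groups overlapped in all pairs. Pgk1 differed by −0.18 ± 0.090 in HFD against NC (adjusted p = 0.17), by −0.03 in SZ-A against HFD with an interval of −0.18 to 0.13, and by −0.21 in SZ-A against NC (adjusted p = 0.15). With plain totals the difference in HFD against NC was −0.03, and with a common sum it was 0.01. Windows shared with other genes made up 67.0% of the transcript, yet the 2 pseudogenes listed held only 8 to 20 fragments per mouse, against 4018 to 6349 on Pgk1.

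Gapdh (ENSMUSG00000057666, chr6:125161715-125166467, minus strand) encodes glyceraldehyde-3-phosphate dehydrogenase, the glycolytic enzyme just before phosphoglycerate kinase. It was listed at 0.348 to 1.17 FPKM, or 33 to 91 fragments, in 16 of the 18 mice. In NC5 it was at 10.01 FPKM with 670 fragments, and in SZ-A6 at 33.4 FPKM with 2508 fragments. These were 8.53 and 28.5 times the highest of the other 16 mice. No other gene was over 1 FPKM in both mice and in both more than 2-fold above the highest of the other 16. The medians were 1.05 FPKM for NC, 0.649 for HFD and 0.722 for SZ-A, far below the 110.3 to 131 of Pgk1, which acts in the same pathway.

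The level of Gapdh comes with a fact of its sequence. Windows that also occur in other genes made up 78.1% of its transcript, the largest share of the 9 genes. The other genes numbered 86 in the data, of which 82 are pseudogenes. These 82 held 275 to 578 fragments together, more than Gapdh itself in 16 of 18 mice. In NC5 and SZ-A6 they held 552 and 388. How fragments that match several genes were counted is not given in the sources used here, so the Gapdh level is uncertain, and the part of these copies in it was not tested. The gene also overlaps Iffo1 on the other strand by 68 bases, and reads of the pair cannot be told apart where the counting does not use strand.

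Gapdh differed by −1.03 ± 0.52 in log2 in HFD against NC (adjusted p = 0.18) and by 1.01 ± 0.82 in SZ-A against HFD (adjusted p = 0.61), with an interval from −0.77 to 2.79 for the latter. The first was −0.49 ± 0.25 without NC5, and neither was called with any single mouse left out. The SD of Gapdh over the 18 mice was 1.52 in log2, and 0.422 without NC5 and SZ-A6.

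**Figure D2:**
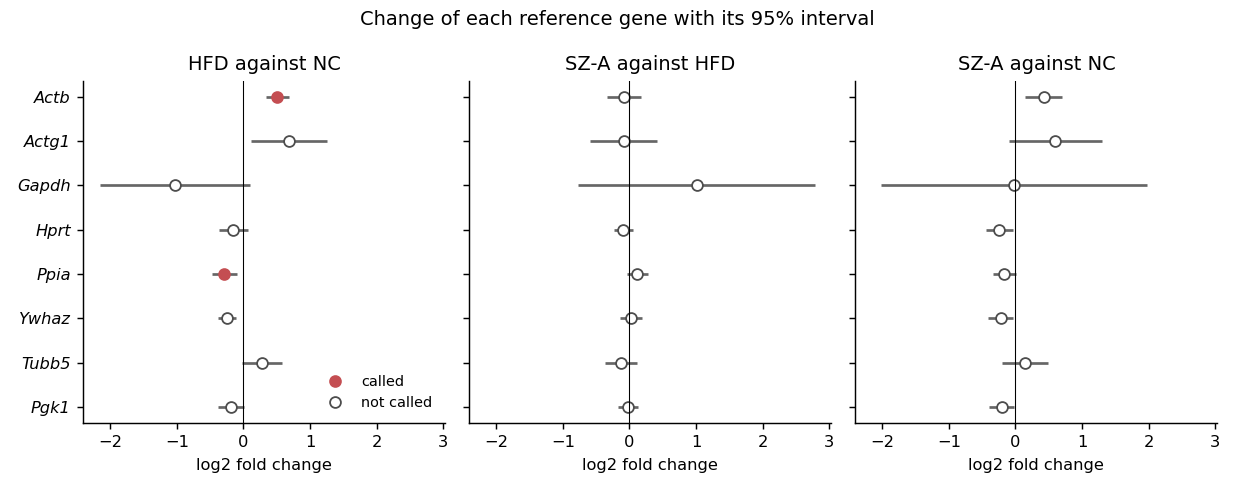
Change of each of the 8 reference genes tested (log2 fold change, horizontal axis) in HFD against NC, SZ-A against HFD and SZ-A against NC, as points with 95% intervals. Filled points mark the 2 called, Actb at 0.50 and Ppia at −0.29, both in HFD against NC.

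Hprt (ENSMUSG00000025630, chrX:52988137-53021659, plus strand) encodes hypoxanthine guanine phosphoribosyltransferase, which returns purine bases to nucleotides. Levels (lowest, median and highest) were 45.2, 55.2 and 71.0 FPKM in NC, 44.9, 51.2 and 54.8 in HFD, and 43.5, 47.4 and 50.3 in SZ-A. NC5 was the highest mouse of all and NC6 the lowest of its group. Hprt differed by −0.15 ± 0.098 in HFD against NC (adjusted p = 0.30), by −0.09 in SZ-A against HFD with an interval of −0.23 to 0.05, and by −0.25 in SZ-A against NC (adjusted p = 0.12). Without NC6 the last was −0.31 (adjusted p = 0.043) and was called. With plain totals the difference in HFD against NC was 0.00. No window of its transcript was found in another gene.

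Tbp (ENSMUSG00000014767, chr17:15499888-15528379, plus strand) encodes the TATA-binding protein, around which general transcription factors assemble. Its lowest, median and highest levels were 0.558, 0.682 and 0.969 FPKM in NC, 0.516, 0.589 and 0.644 in HFD, and 0.524, 0.664 and 0.778 in SZ-A. Its median over all mice, 0.647 FPKM, was the lowest of the 9 genes per length, with 130 to 213 fragments per mouse over a listed gene length of 13576 bases. It overlaps Pdcd2 on the other strand by 8094 bases, and reads of that stretch cannot be told apart where the counting does not use strand. Pdcd2 itself was listed at a mean of 0 FPKM, and the part of the overlap in the Tbp level was not tested. It was not in the tested set, and with no filter on low values it differed by −0.22 ± 0.10 in HFD against NC (adjusted p = 0.42).

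Ppia (ENSMUSG00000071866, chr11:6415443-6419817, plus strand) encodes cyclophilin A, a prolyl isomerase that helps proteins fold. Levels (lowest, median and highest) were 51.3, 55.2 and 67.1 FPKM in NC, 43.1, 44.3 and 54.2 in HFD, and 47.4, 49.4 and 55.9 in SZ-A. Of the 6 HFD mice, 5 were below the lowest NC mouse. Ppia fell in HFD against NC by 0.29 ± 0.087 on the log2 scale (adjusted p = 0.032). The call was lost without NC6, at −0.24 (adjusted p = 0.06), and was kept in 6 of the 12 fits that left out a mouse. With plain totals or a common sum the difference was −0.13 and −0.10 and was not called. The SZ-A to HFD difference was 0.12, with an interval of −0.03 to 0.27. Windows in other genes made up 47.5% of the transcript, and the 13 pseudogenes listed held 2055 to 3095 fragments per mouse, against 2935 to 4444 on Ppia, and their part in the result was not tested.

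Ywhaz (ENSMUSG00000022285, chr15:36770770-36796929, minus strand) encodes 14-3-3 zeta, an adapter that binds phosphorylated proteins. Its lowest, median and highest levels were 22.4, 25.1 and 27.0 FPKM in NC, 19.96, 20.8 and 22.1 in HFD, and 18.9, 20.2 and 26.4 in SZ-A. All 6 HFD mice and 5 of 6 SZ-A mice were below the lowest NC mouse. HFD and NC did not overlap either for 10.5% of all genes tested. The difference in HFD against NC was −0.24 ± 0.064 in log2 (adjusted p = 0.0168), and since its fold of 1.18 was under 1.2 it was not called. Without NC6 it was −0.23 (adjusted p = 0.033). With plain totals it was −0.09 (adjusted p = 0.39). For SZ-A against HFD it was 0.02, with an interval of −0.15 to 0.19.

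Stability over all mice was described by the SD of log2(FPKM + 0.1) over the 18 mice. From steadiest to least steady the SD was 0.156 for Pgk1, 0.159 for Ywhaz, 0.168 for Ppia and 0.171 for Hprt, then 0.19 for Tbp, 0.267 for Tubb5, 0.291 for Actb, 0.595 for Actg1 and 1.52 for Gapdh. The first 4 and Tbp lie within each other's 95% intervals, so their order was not resolved. The intervals run from 0.117 to 0.233 for Pgk1, from 0.128 to 0.256 for Hprt and from 0.143 to 0.285 for Tbp. They treat the 18 mice as 1 sample, without regard to group. Actb was spread more than the median tested gene, at 0.238, and 63.8% of tested genes were steadier. For Pgk1 and Ywhaz 15.8% and 17.4% of tested genes were steadier. Counting error alone gave an SD of 0.0164 for Actb, 0.158 for Gapdh and 0.0974 for Tbp.

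Within groups the order differed. With group means removed, the SD was 0.119 for Ywhaz, 0.124 for Ppia, 0.131 for Pgk1, 0.144 for Hprt and 0.193 for Actb. Of all tested genes, 41.9% were steadier than Actb within groups and 8.33% were steadier than Ywhaz. Within HFD alone the SD of Actb was 0.0553, against 0.158 in NC and 0.29 in SZ-A.

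**Figure D3:**
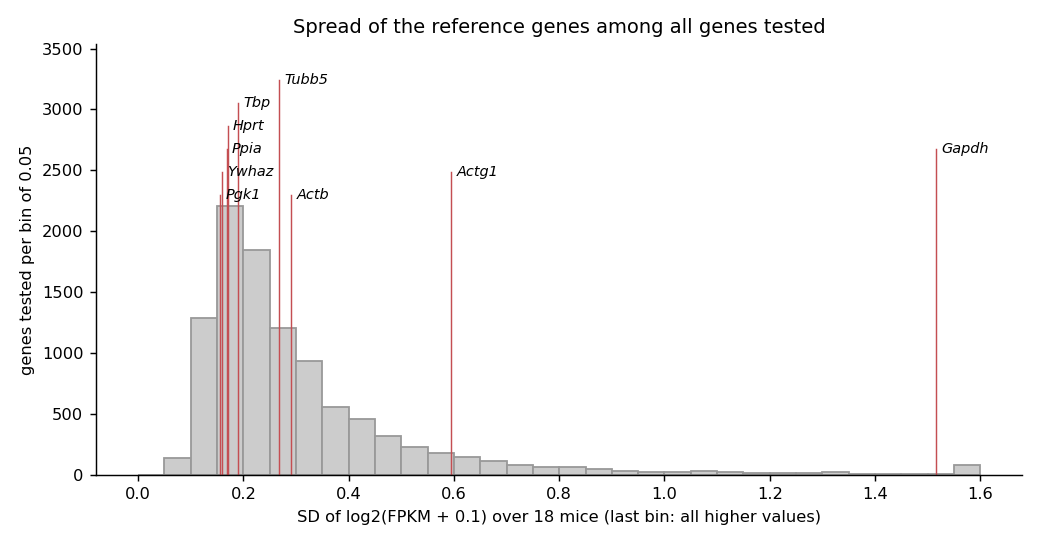
Number of tested genes (vertical axis) by the SD of log2(FPKM + 0.1) over the 18 mice (horizontal axis, bins of 0.05, the last bin holding all higher values), with a line at each reference gene. Pgk1, Ywhaz, Ppia and Hprt lie at 0.156 to 0.171, Actb at 0.291, and Actg1 and Gapdh far to the right.

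Pairs of reference genes were compared by the SD of their log2 ratio, which needs no scaling between mice. Hprt and Pgk1, both on the X chromosome, had the lowest, at 0.114. Ppia and Ywhaz followed at 0.168. Each ratio with Actb had a higher SD, from 0.341 with Tubb5 to 0.41 with Tbp, and 1.58 with Gapdh. With group means removed, the ratio of Actb to Ywhaz had an SD of 0.131. In HFD against NC, Actb was called higher relative to Hprt (0.66), Pgk1 (0.69), Tbp (0.73), Ywhaz (0.75) and Ppia (0.79). It was not called relative to Actg1 (−0.18), Tubb5 (0.23) or Gapdh (1.54). Of the 10215 genes tested, 1233 were called higher relative to Hprt, 1726 to Pgk1, 2920 to Ywhaz and 2929 to Ppia. Relative to Tbp, 1659 of 10216 were. The median ratio of Hprt to Actb was 0.461 for NC mice, 0.276 for HFD mice and 0.293 for SZ-A mice, and that of Ppia was 0.451, 0.251 and 0.293.

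**Figure D4:**
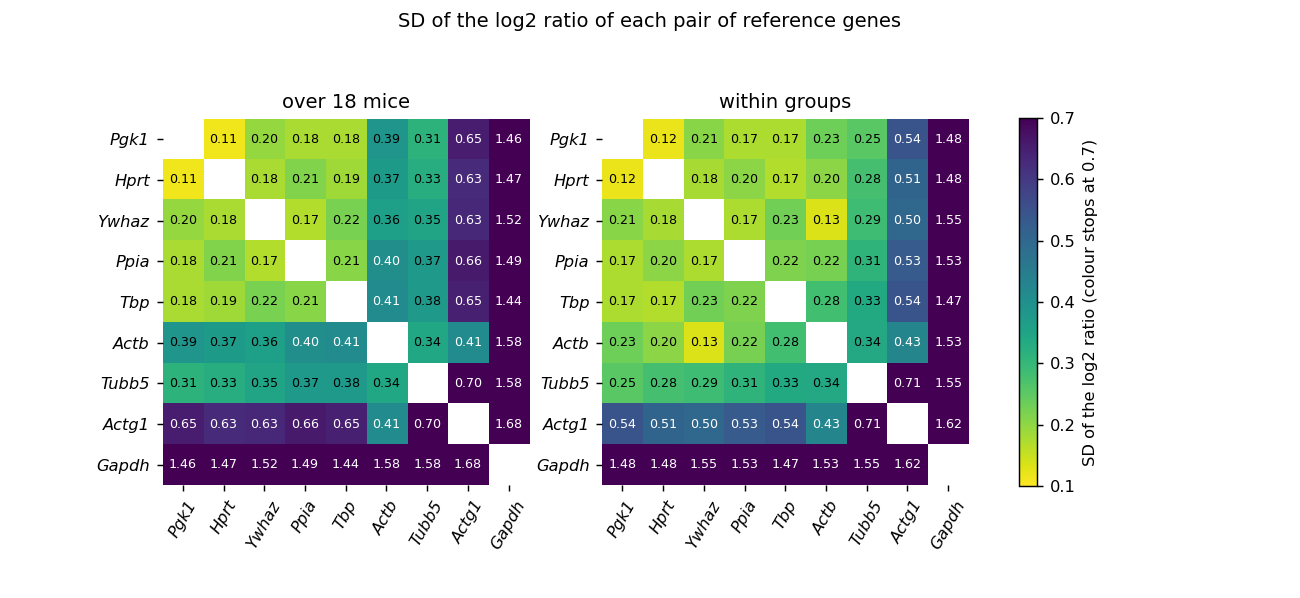
SD of the log2 ratio of each pair of reference genes over 18 mice (left) and with group means removed (right), with the value in each cell and a colour scale that stops at 0.7. For Actb with Ywhaz the value is 0.36 over all mice and 0.13 within groups, for Actb with Tubb5 0.34 in both panels, and for Actb with Actg1 0.41 and 0.43.

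The 5 tested genes with the steadiest ratio to Actb over the 18 mice were B2m, the light chain of class I histocompatibility molecules (0.159), Mfsd1 (0.162), Galk2 (0.162), Ywhah, another 14-3-3 protein (0.166), and Clcn7 (0.169). The B2m medians were 1329 FPKM for NC, 1728 for HFD and 1550 for SZ-A, in the same order as Actb. These genes were chosen for this likeness, so no test is given for it. Among genes with a mean of at least 10 FPKM, the smallest SD over the mice was 0.0638 for Azgp1, 0.0643 for Ppm1a, 0.0663 for Actr1a, 0.0681 for Tmem234 and 0.0714 for Seh1l.

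Another list held 20 other genes in use as references, none of them among the 9. Of these, 13 had a smaller SD than Actb and 5 a smaller SD than Pgk1. The steadiest was Nono, a nuclear RNA-binding protein, at 0.0936, and the least steady was Tfrc, the transferrin receptor, at 0.732. In HFD against NC, 1 of the 20 was called higher and 3 lower, with a median change of −0.15 against −0.03 over all tested genes, of which 10.7% were called higher and 9.49% lower. B2m rose by 0.41 and Rps18, a ribosomal protein gene, fell by 0.42 on the log2 scale. None of the 20 was called in SZ-A against HFD by limma, with 6 at an unadjusted p under 0.05 (14.8% of all genes tested), and Rps18 differed there by 0.38 (adjusted p = 0.0999) without overlap, as 1.28% of all genes tested did. Called lower in SZ-A against NC were 2, among them Gusb, which encodes β-glucuronidase and fell by 0.54.

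The genes that work with each reference gene were read from lists of the same pathway, in HFD against NC, where 10.7% of all genes tested were called higher and 9.49% lower. Of 42 tested genes of the actin cytoskeleton, 12 were higher and 1 lower, with a median of 0.12 against −0.03 over all tested genes. Tpm2, a tropomyosin, rose by 1.68, Capg, which caps filaments, by 1.63 and Coro1a, a coronin of leukocytes, by 1.14. Of 15 tubulin genes 3 were higher and 3 lower, among them Tuba1a, which rose by 1.17, and Tuba8, which fell by 1.30. Of 15 glycolytic genes 5 were higher and 5 lower.

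Beside the same 10.7% and 9.49% of all genes, 4 of 13 genes of purine salvage were higher and 2 lower, among them Gda, guanine deaminase, at 1.28 and Aprt, which salvages adenine, at −0.78. Of 16 genes of TFIID and basal transcription 1 was lower, Gtf2b at −0.47. Of 16 cyclophilins and FKBPs 2 were higher, Ppic at 0.50 and Ppib at 0.36, and of 5 other 14-3-3 genes 1 was, Ywhah at 0.40. None of the 122 genes of these lists was called by limma in SZ-A against HFD, and 26 had an unadjusted p under 0.05, beside 0.147% and 14.8% of all genes tested. In SZ-A against NC, where 5.31% of all genes tested were called higher and 4.3% lower, the calls were 2 higher for actin, 2 higher and 1 lower for tubulins, 4 and 1 for glycolysis, 1 higher for purine salvage, 2 higher for cyclophilins and FKBPs, and none for TFIID or 14-3-3.

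Markers of other liver cells were read in HFD against NC beside the 10.7% of all genes tested that were called higher and the 9.49% called lower. The summed level of 10 Kupffer cell and macrophage markers ran from 137 to 275 FPKM in NC mice, from 256 to 423 in HFD mice and from 229 to 330.4 in SZ-A mice, and 4 of the 10 were called higher in HFD against NC, among them Cd68 and Lyz2. For 10 stellate cell and fibroblast markers the sum was 40.4 to 60.5, 46.1 to 103 and 42.4 to 63.1 FPKM, with 6 of 9 tested called higher. Of 10 endothelial markers 2 were called higher, and of 10 hepatocyte markers 5 were called lower and none higher. Of 10 leukocyte markers 8 were below 1 FPKM, and S100a8 and S100a9 were called higher. None of 3 cholangiocyte and 5 red blood cell genes was called by limma, with 2 and 1 at an unadjusted p under 0.05. Of the adipocyte genes, 2 of 4 tested were called higher and 1 lower, with Adipoq, Plin1, Lep and Retn below 1 FPKM. The part of these cells in the Actb change was not tested, and in bulk liver fewer cells of a type and less RNA per cell cannot be told apart.

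The values were then expressed relative to Actb, as RT-PCR does, by subtracting the log2 Actb level of each mouse from that of each gene. In HFD against NC the median change of all genes became −0.54, and 7430 of 10215 genes (72.7%) were called, 251 higher (2.46%) and 7179 lower (70.3%). Of the 7 other reference genes tested, 5 were called lower, Ppia at −0.79, Ywhaz at −0.75, Pgk1 at −0.69, Hprt at −0.66 and Gapdh at −1.54. These are the ratios to Actb given above with the sign reversed, so they are not separate results. Gapdh passed the filter only through NC5 and SZ-A6, and NC5 is among the NC mice of this comparison. As deposited, its change was −1.03, and −0.49 without NC5. Gapdh was called here by limma (adjusted p = 0.0101) and not when Actb was read relative to Gapdh (adjusted p = 0.18). Each fit estimated the spread and adjusted p over its own genes. Actg1 (0.18) and Tubb5 (−0.23) were not. None of the 7 was called in SZ-A against HFD by limma, beside 0.0979% of all genes, 0.0489% in each direction. In SZ-A against NC, 4 of 7 were called lower, beside 40.7% of all genes lower and 1.02% higher, 41.7% in all.

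Besides Actb, the primer list for RT-PCR held 20 genes, of which 16 were tested. Col6a3, Tnf, Timp1 and Mmp9 had a mean below 1 FPKM. Ccl2, Col1a2 and Mmp2 passed the filter only through the HFD mice, so the filter favoured their calls higher in HFD. Their means were 0.243, 0.709 and 0.719 FPKM in NC, 1.25, 1.18 and 0.998 in SZ-A, and 2.57, 3.20 and 2.05 in HFD. As deposited, 12 of the 16 were called higher in HFD against NC and none lower, with a median change of 1.34. Of all genes tested, 10.7% were called higher and 9.49% lower. Relative to Actb, 9 were called higher and 2 lower, Ppargc1a at −1.22 and Adipor1 at −0.71, and the median was 0.84. Of all genes tested, 2.46% were then called higher and 70.3% lower. Among genes of fat uptake, inflammation and fibrosis the calls held against all 9 references for Cd36, a fatty acid receptor, the galectins Lgals1 and Lgals3, the collagens Col1a1, Col1a2 and Col3a1, and the chemokine Ccl2. Lgals1 differed by 2.27 to 3.99 and Cd36 by 1.38 to 3.09 over the references, with the upper end of each relative to Gapdh.

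For other targets the reference decided the call. Pparg, a regulator of fat storage, Adgre1, which encodes F4/80, and Vim, which encodes vimentin, were called against 5 of the 9 references, and Cd68 and Mmp2 against 8. Mmp2 passed the filter only through the HFD mice. Vim was at −0.04 relative to Actg1. The highest value of each target was the one relative to Gapdh, whose own change went from −1.03 to −0.49 without NC5. The adiponectin receptor Adipor1 ran from −0.88 to 0.086 over the other references and was at 0.83 relative to Gapdh, and Adipor2 ran from −0.44 to 0.53 and was at 1.27. Ppargc1a, a coactivator of mitochondrial genes, was negative against the 8 other references, from −1.40 to −0.43, and at 0.31 relative to Gapdh. Ppara ran from −0.42 to 0.55 and was at 1.29 relative to Gapdh, with no call against any reference. The number of targets called was 9 with Actg1 or Gapdh as reference and 13 with Tbp, Ppia or Ywhaz. Of all genes tested, 31.4% were called relative to Actg1, 2.16% to Gapdh, 15.2% to Hprt, 18.6% to Tbp, 30.8% to Ppia, 31.2% to Ywhaz, 15.4% to Tubb5 and 19.8% to Pgk1.

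In SZ-A against HFD, 3 targets were called as deposited, Lgals1 (−1.84), Cd36 (−1.21) and Cd68 (−0.64), and 2 relative to Actb. Beside them, 0.147% and 0.0979% of all genes tested were called. The median change of the targets was −0.77 as deposited and −0.69 relative to Actb. No target was called when HFD1, HFD2, HFD4, SZ-A1, SZ-A4 or SZ-A6 was left out, or with no filter on low values. The direction of the 3 was the same against all 9 references, and Lgals1 was called against 8, Cd36 against 6 and Cd68 against 3. Of all genes tested, 0.578% were called relative to Actg1, 0.0196% to Gapdh, 0.744% to Hprt, 0.0783% to Tbp, 0.117% to Ppia or Tubb5, 0.147% to Ywhaz and 0.0881% to Pgk1. In SZ-A against NC, 2 were called higher as deposited, Col3a1 at 1.197 and Cd68 at 0.71, beside 5.31% of all genes tested. Relative to Actb, 2 were called lower, Ppargc1a at −1.29 and Adipor1 at −0.58, beside 40.7% of all genes. Relative to Ywhaz 11 and to Hprt 10 were called higher, beside 17.4% and 20.7% of all genes called in either direction.

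**Figure D5:**
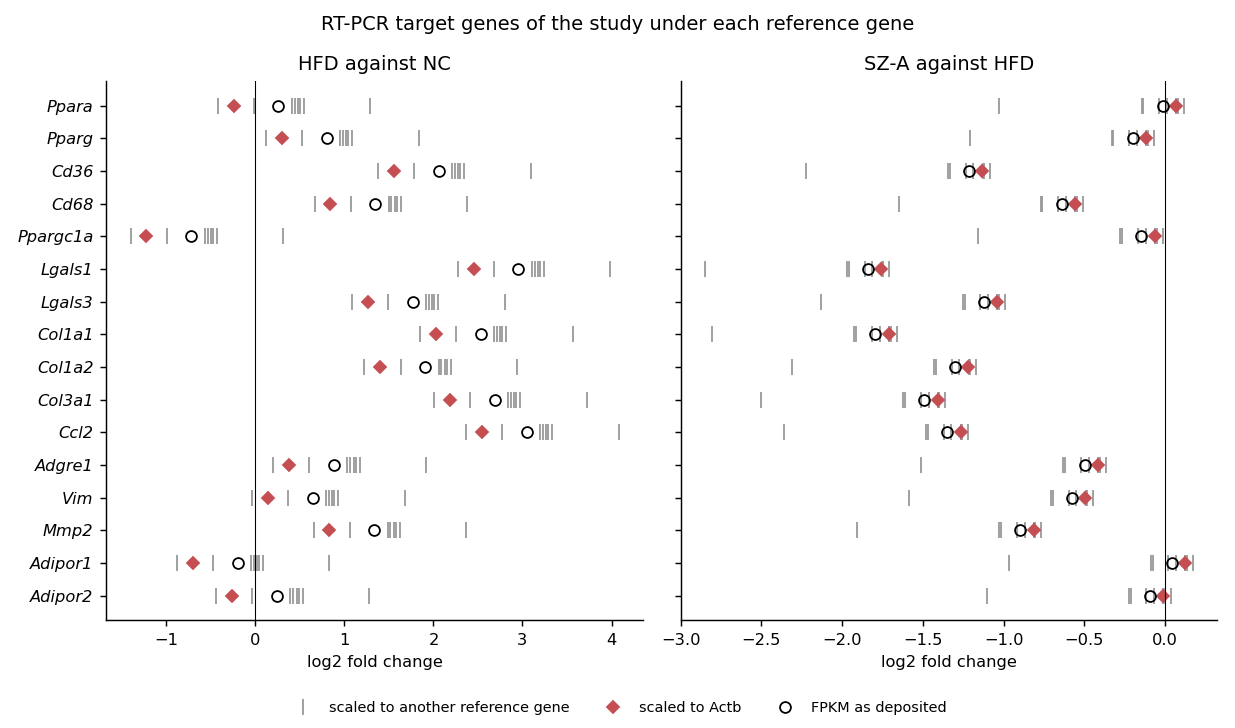
Log2 fold change (horizontal axes) of the 16 tested RT-PCR targets in HFD against NC (left) and SZ-A against HFD (right), with FPKM as deposited (circles), relative to Actb (diamonds) and relative to each other reference gene (ticks). Diamonds lie 0.50 left of the circles in HFD against NC and 0.08 right of them in SZ-A against HFD, and the tick farthest from the circle is Gapdh.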

How the data were processed

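Liver RNA of 18 mice, 6 in each of NC, HFD and SZ-A, was sequenced after poly-A selection. The submitters' processing notes name HISAT2 2.0.5 and featureCounts 1.5.0-p3, and the alignment was to GRCm38. The authors deposited 1 table of FPKM, with gene length and position, and tested with DESeq2, which was not repeated. FPKM times gene length gave whole fragments for 100% of the deposited values within 0.05, and the depth is the total of these. FPKM was tested as log2(FPKM + 0.1) with limma 3.58.1 in R 4.3.3, each comparison on its own groups, and fold changes are on that scale, which understates the change of low genes. A moderated test with an intensity trend was used, two-sided, on genes with a mean of at least 1 FPKM.

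Groups and numbers came from the sample titles. Samples with the same number did not pair, with correlations of deviations from −0.117 to 0.292. No 2 samples of the same group held the same library, and samples of different groups were not compared for this. The labels do not name separate cages or days, so p-values measure the spread between these mice. The reference genes and all lists were chosen with earlier results of these data known. The genes named are the reference genes, the RT-PCR targets, of each list up to 3 called genes with the largest change, and 5 genes each with the steadiest ratio to Actb and the steadiest level. Nono and Tfrc were named after their values were seen, and some genes that the rule names are not reported here. Sequences came from GENCODE M21 transcripts and the primer table of the study. Windows of 100 bases were matched exactly. Alternatives were other pseudocounts (1 and 0.01), filters (none and 5 FPKM), scalings, references, limma options, voom on fragments and leaving out each mouse. The plain totals, the mean of the references without Gapdh and leaving out NC5, NC6 and SZ-A6 together were chosen after seeing the data. The scripts were tested on simulated data.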

Additional observations from a re-analysis of the deposited data

Results flagged for a closer look

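In the 27 sets of 6 mice formed by 9 reference genes and 3 groups, 3 highest values stood apart from the rest of their group by Dixon's ratio, the gap to the nearest mouse over the whole range, which passed its 95% critical value. Chance alone flags about 1 in 20 such sets. Actg1 was at 98.6 FPKM in NC5, against 49.8 in the next NC mouse (ratio 0.652). Gapdh was at 10.01 FPKM in NC5, against 1.17 in the next NC mouse (ratio 0.946). Gapdh was at 33.4 FPKM in SZ-A6, against 1.043 in the next SZ-A mouse (ratio 0.985).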

How the results depend on the processing

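The causes of the shifts below were not tested. Apart from the readings relative to 1 other reference gene, given in the report, the Actb change in HFD against NC kept its direction and call in all 27 alternatives (0.47 to 0.55 with 1 mouse left out). In SZ-A against NC (0.35 to 0.48 with 1 mouse left out) Actb was called at 5 FPKM (0.42, adjusted p = 0.047), with plain totals (0.46), all 18 mice in 1 fit (0.42) and sample weights (0.44).

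In HFD against NC the 2062 genes called became 1060 with no filter, 1271 at 5 FPKM and 1156 scaled to the mean of the references (1646 to 2145 with 1 mouse left out). Of the reference genes 2 were called, 1 with no filter or median-ratio scaling, 5 scaled to Actb, and 1 to 3 with 1 mouse left out. The 12 targets became 6 at 5 FPKM.

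In SZ-A against HFD the 15 genes called became 0 with no filter, 26 at 5 FPKM, 216 with a common sum, 42 with plain totals, 7 scaled to the mean of the references, 35 with all mice, 233 with sample weights, 27 with voom and 2 without NC5, NC6 and SZ-A6. With 1 mouse left out they ran from 2 (without HFD4) to 49 (without SZ-A2). The 3 targets became 0 with no filter or without the 3 mice, 7 with a common sum, 1 without trend, 9 with sample weights, and 0 to 7 with 1 mouse left out (0 without HFD1, HFD2, HFD4, SZ-A1, SZ-A4 or SZ-A6, 1 without SZ-A3, 7 without HFD5). The 2 targets called relative to Actb became 5 relative to Actg1, 0 to Gapdh, 1 to Tubb5, 5 with a pseudocount of 1, and 1 to 6 with 1 mouse left out.

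In SZ-A against NC the 981 genes called became 219 with no filter, 255 scaled to the mean of the references and 1682 with sample weights, and 601 (without SZ-A3) to 1179 (without SZ-A5) with 1 mouse left out. No reference gene was called, but 1 was at 5 FPKM, with plain totals, the mean without Gapdh or all mice, 2 with sample weights, 4 scaled to Actb, and 0 to 1 with 1 mouse left out. The 2 targets became 0 with no filter, a common sum or the mean of the references, 1 at 5 FPKM or without the 3 mice, 5 with all mice, and 0 to 4 with 1 mouse left out. The 2 called relative to Actb became 1 relative to Actg1 or Tubb5, 0 to Gapdh, Tbp or the mean with or without Gapdh, 10 to Hprt, 7 to Ppia, 11 to Ywhaz, 9 to Pgk1, and 2 to 4 with 1 mouse left out.

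With the replicate number as a block, which did not pair the mice (correlations −0.117 to 0.292), genes called numbered 1647, 0 and 922 in the 3 comparisons in this order, reference genes 1, 0 and 0, targets 12, 0 and 3, and targets relative to Actb 11, 5 and 5.

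The SD of Tbp was 0.0891 with a pseudocount of 1 and 0.132 with a common sum, against 0.19. That of Ywhaz was 0.242 scaled to the mean of the references, and without NC5, NC6 and SZ-A6 Gapdh was at 0.422 and Hprt at 0.128. With 1 mouse left out, Gapdh ran from 0.956 to 1.56 and Hprt from 0.125 to 0.176. Of the values of single named genes under alternatives, 5577 kept direction and call, 98 gained a call, 232 lost it, and 105 that were called in neither turned sign. By counting error alone the SD was 0.158 for Gapdh and 0.0974 for Tbp.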

Other observations

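Acta1, the skeletal muscle actin, was listed at 0 in all 6 SZ-A mice. It was listed at 0 to 24.1 FPKM in HFD, with a median of 0, and at 0 to 4.03 FPKM in NC. Apoa1, the main protein of high-density lipoprotein and 1 of the 10 hepatocyte markers, had means of 8112 FPKM in SZ-A and 4752 in HFD without overlap, and limma did not call it (adjusted p = 0.0557). Cfd, which encodes adipsin and was among the adipocyte genes, rose in HFD against NC by 4.68 ± 0.88 on the log2 scale (limma, adjusted p = 0.00268).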
